A study of Arabidopsis thaliana with 6 samples.

Results

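PDF1.2 (AT5G44420), PDF1.2b (AT2G26020) and THI2.1 (AT1G72260) are defence genes whose transcripts serve as markers of jasmonate signalling in Arabidopsis thaliana, and their levels were followed on 6 arrays of whole seedlings. Members were the probe sets annotated to exactly 1 of these genes, which gave 1 probe set per gene, 249052_at, 257365_x_at and 259802_at, and 3 genes out of 13356 that a probe set named alone. The arrays came from seedlings labelled nbp35-3/-, seedlings labelled nar1-4/- and wild type (WT), 2 arrays of each, all in the Col-0 background. All were collected untreated, 2 weeks after imbibition, from MS plates kept at 22 °C with days of 16 h light and nights of 8 h. NBP35 and NAR1 are proteins of the cytosolic machinery that assembles iron-sulphur clusters, the protein-bound cofactors used by many cytosolic and nuclear enzymes. What "/-" stands for is not given in the labels, and the source name of the nbp35 samples carries the allele number nbp35-4 where title and genotype carry nbp35-3. Titles number the arrays 1 and 2 within each genotype, and the design text calls them biological replicates without saying whether a number marks a shared sowing, harvest or hybridisation. Neither mutated gene could be checked, since 0 probe sets named NAR1 (AT4G16440) alone and 0 named NBP35 (AT5G50960) alone.

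Jasmonate is a lipid-derived hormone of wounding and of defence against insects and necrotrophic pathogens. Its conjugate with isoleucine joins the F-box protein COI1 to JAZ repressors, whose loss frees transcription factors. The MYC factors then drive wound-response genes, while the ethylene-linked factors ERF1 and ORA59 drive antifungal genes such as PDF1.2, and salicylic acid is known to antagonise this second branch. PDF1.2 and PDF1.2b encode plant defensins, small cysteine-rich secreted peptides that inhibit fungal growth. THI2.1 encodes a thionin, another family of small antimicrobial peptides, and is inducible by methyl jasmonate in seedlings.

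PDF1.2 and PDF1.2b are close copies. In the RefSeq gene table of assembly TAIR10.1 the next protein-coding gene after PDF1.2 is PDF1.2c, and the gene just before PDF1.2b is PDF1.3. No probe set named PDF1.2c or PDF1.3 alone (0 for each). The suffix "_x_at" of the PDF1.2b probe set is Affymetrix's mark for probes that also match other sequences. The PDF1.2b reading may therefore include transcripts of its close copies. The PDF1.2 probe set carries no such mark. Whether it reads the copies too, and how much each copy contributes to either reading, was not tested.

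The values are log2 levels after RMA, so 1 unit is a 2-fold difference, and a level of 1 probe set is not comparable with that of another. The 6 arrays separated by replicate number rather than by genotype: across 22746 probe sets, arrays of the same number correlated at 0.9873 to 0.9943 and the 2 arrays of 1 genotype at 0.9679 to 0.9698. The first principal component (69.9% of the variance) split the arrays by number. On the second (11.5%) the nbp35-3 array of number 2 scored 29.72 and the others -20.47 to 9.88. The 18 hybridisation spike probe sets, which read added RNA and not the plant's, averaged 10.65 in number 2 and 9.19 in number 1. Each difference between genotypes is therefore given within number 2 and within number 1 as well as over both.

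PDF1.2 stood at 4.82 in number 2 and 6.68 in number 1 of nbp35-3, at 4.13 and 5.86 in nar1-4, and at 5.65 and 4.71 in WT. Both mutants were thus low in number 2 and high in number 1, while WT ran the other way, and the ranges of all 3 genotypes overlapped. Ranked among all probe sets of the array, PDF1.2 lay at percentile 39.4 in number 2 and 63.7 in number 1 of nbp35-3, at 32.2 and 51.9 in nar1-4, and at 47.6 and 38.6 in WT. The means were 5.75 ± 1.32 in nbp35-3, 4.997 ± 1.22 in nar1-4 and 5.18 ± 0.67 in WT (SD, n = 2 each), and neighbours in this order lay closer together than the spread within any of the genotypes compared.

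PDF1.2b stood at 6.09 in number 2 and 6.75 in number 1 of nbp35-3, at 4.11 and 6.55 in nar1-4, and at 6.36 and 6.15 in WT. Of the 6 arrays, 5 fell between 6.09 and 6.75, and the nar1-4 array of number 2 lay about 2 units under them. On that array PDF1.2b lay at percentile 31.9 of all probe sets, and on the others at 54.5 to 64.9. The means were 6.42 ± 0.47 in nbp35-3, 5.33 ± 1.72 in nar1-4 and 6.26 ± 0.15 in WT (SD, n = 2 each), so the low nar1-4 mean and its wide spread both came from 1 array.

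THI2.1 lay at percentiles 17.5 to 35.0 of its arrays. It stood at 3.46 in number 2 and 3.11 in number 1 of nbp35-3, at 3.21 and 4.33 in nar1-4, and at 3.70 and 4.099 in WT. Both nbp35-3 arrays lay below both WT arrays, while nar1-4 spanned the WT range. The means were 3.29 ± 0.25 in nbp35-3, 3.77 ± 0.79 in nar1-4 and 3.90 ± 0.29 in WT (SD, n = 2 each). The first quartile of the arrays was at 3.48 to 3.58, so THI2.1 was close to the level of dim probe sets, where a log2 difference understates a change in transcript.

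**Figure D1:**
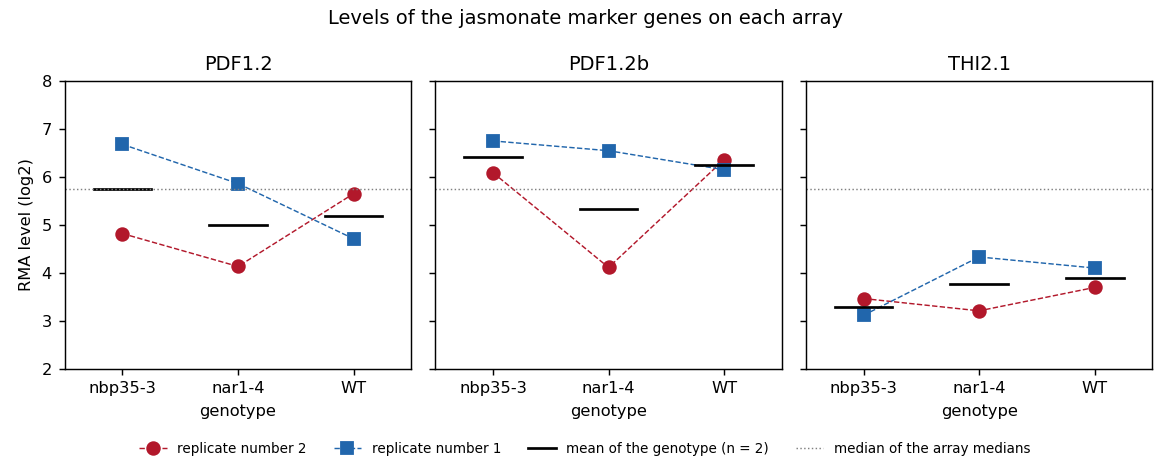
RMA log2 level (vertical axis) of PDF1.2, PDF1.2b and THI2.1 in nbp35-3, nar1-4 and WT seedlings, with number 2 as red circles, number 1 as blue squares, dashed lines joining arrays of the same number, black bars for genotype means (n = 2) and a dotted line at the median of the array medians. The lines of the 2 numbers cross between nar1-4 and WT for PDF1.2, and the nar1-4 array of number 2 stands alone at 4.11 for PDF1.2b.

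The defensins followed nearly the same order of arrays, though their probe sets may read the same close copies and need not be independent. From highest to lowest, PDF1.2 and PDF1.2b both began with nbp35-3 number 1, nar1-4 number 1 and WT number 2, and both ended with nar1-4 number 2. They differed only in the order of nbp35-3 number 2 and WT number 1, which lay next to each other in both. The order of THI2.1 was different, with nar1-4 number 1 highest and nbp35-3 number 1, the top array for both defensins, lowest.

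The comparison of nar1-4 with WT asks which transcripts differed in the seedlings labelled nar1-4/-. PDF1.2 was 2.87-fold lower in nar1-4 within number 2 (log2 -1.52) and 2.22-fold higher within number 1 (1.15). PDF1.2b was 4.76-fold lower within number 2 (-2.25) and 1.32-fold higher within number 1 (0.40). THI2.1 gave -0.49 and 0.23. All 3 genes thus had opposite signs in the 2 numbers, as did 45.5% of all probe sets, so the change of sign alone is not particular to them.

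The sizes were less common. Within number 2, PDF1.2 and PDF1.2b were among the 0.602% of probe sets at least 2-fold lower in nar1-4, and within number 1 PDF1.2 was among the 0.317% at least 2-fold higher. PDF1.2 was 1 of 4 probe sets (0.0176%) that were at least 2-fold from WT in both numbers and in opposite directions. The gap between the nar1-4 differences of the numbers, number 2 minus number 1, was -2.67 log2 units for PDF1.2, and 8 of 22746 probe sets had a gap at or below that value. For PDF1.2b the gap was -2.65, with 9 probe sets at or below it, and for THI2.1 it was -0.72, with 501. These gaps rest on 4 arrays with no repeat inside a number, so none could be tested. The genes were chosen with earlier results of these data known, so their sizes may have entered the choice. The shares and ranks here and in the comparisons below are therefore a description only.

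Over both numbers, limma (adjusted by Benjamini-Hochberg) called 0 of the 3 genes in nar1-4, where 0% of all probe sets were called. An unadjusted p under 0.05 was reached by 196 probe sets (0.862%), none of them a member (0 of 3). With so small a share, 0 of 3 is not particular to the members. PDF1.2 differed by -0.18 ± 0.86 on the log2 scale (SE, 95% interval -2.40 to 2.03), PDF1.2b by -0.93 ± 0.81 (-3.0 to 1.15) and THI2.1 by -0.13 ± 0.41 (-1.18 to 0.93), each with an adjusted p of 1. In this fit the distance between the numbers widens the intervals, which admit changes of more than 2-fold either way for PDF1.2 and PDF1.2b and more than 2-fold lower for THI2.1. With the replicate number as a block they were narrower, at -1.86 to 1.49 for PDF1.2, -2.36 to 0.51 for PDF1.2b and -0.95 to 0.69 for THI2.1. Leaving out the nar1-4 array of number 2 gave 0.29 for PDF1.2b, and leaving out that of number 1 gave -2.14, and the sign of PDF1.2 also turned with the array left out (0.68 and -1.05). Each of these fits set 1 nar1-4 array against WT arrays of both numbers, so the number difference also enters the values.

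In the comparison of nbp35-3 with WT, PDF1.2 stood apart in number 1. It was 1.78-fold lower in nbp35-3 within number 2 (log2 -0.83) and 3.91-fold higher within number 1 (1.97), where 0.198% of all probe sets were at least 2-fold higher. The gap between the numbers was -2.80, with 6 of 22746 probe sets at or below it. The nar1-4 and nbp35-3 differences use the same WT arrays, and in WT PDF1.2 itself was 0.94 higher in number 2 than in number 1, whereas number 2 minus number 1 was -1.86 in nbp35-3 and -1.73 in nar1-4.

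PDF1.2b gave smaller nbp35-3 differences of the same signs, -0.27 within number 2 and 0.60 within number 1. Opposite signs in the numbers were common in nbp35-3 (49.2% of all probe sets). THI2.1 was lower in nbp35-3 within both numbers, by -0.23 and -0.99 log2 units, as were 23.3% of all probe sets. Both nbp35-3 arrays lay below both WT arrays for 8.61% of probe sets and for 1 of the 3 genes, THI2.1.

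In nbp35-3 too, limma called 0 of 3 genes after Benjamini-Hochberg adjustment, against 0% of all probe sets. An unadjusted p under 0.05 was reached by 139 probe sets (0.611%) and 0 members. PDF1.2 differed by 0.57 ± 0.86 (SE, 95% interval -1.65 to 2.78), PDF1.2b by 0.16 ± 0.81 (-1.91 to 2.24) and THI2.1 by -0.61 ± 0.41 (-1.66 to 0.45), each with an adjusted p of 1. Without the nbp35-3 array of number 2, the one apart on the second component, PDF1.2 stood at 1.498 and THI2.1 at -0.78, and without that of number 1 they stood at -0.36 and -0.43.

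The nbp35-3 array of number 1, where PDF1.2 was highest, also had the highest levels of EXPA7 and EXPA18, cell-wall expansins of root hairs. They differed between nbp35-3 and WT by -0.52 and -0.15 within number 2 and by 0.65 and 0.80 within number 1. PYK10, an abundant root beta-glucosidase, differed by -0.13 within number 2 and -0.20 within number 1, so the 3 measured of 4 root markers did not share 1 sign in number 1. LHCB4.1, a light-harvesting protein and the 1 measured of 4 green-tissue markers, stood at 12.86 to 13.17 on all arrays, and 0 of 5 flower markers was measured. The part of organ make-up in the PDF1.2 values was not tested, and in whole seedlings fewer cells of a type and less RNA per cell cannot be told apart.

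Set directly against nar1-4, nbp35-3 stood higher for both defensin probe sets, which may read shared copies, in both numbers, although neither passed the test. PDF1.2 was 0.69 higher within number 2 and 0.82 higher within number 1, a close match between the numbers, and PDF1.2b was 1.98 and 0.20 higher. Of all probe sets, 27.8% were higher within both numbers. PDF1.2b was among the 0.818% at least 2-fold higher within number 2, and THI2.1 (0.26 within number 2 and -1.22 within number 1) among the 0.642% at least 2-fold lower within number 1.

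The direct comparison also called 0 of 3 genes by limma with Benjamini-Hochberg adjustment, against 0% of all probe sets. At an unadjusted p under 0.05 there were 217 probe sets (0.954%) and 0 members. PDF1.2 differed by 0.75 ± 0.86 (SE, 95% interval -1.46 to 2.97), PDF1.2b by 1.09 ± 0.81 (-0.98 to 3.16) and THI2.1 by -0.48 ± 0.41 (-1.54 to 0.57), each with an adjusted p of 1. The SE of PDF1.2 in this fit includes the distance between the numbers, which within each mutant was larger than the difference between the mutants.

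**Figure D2:**
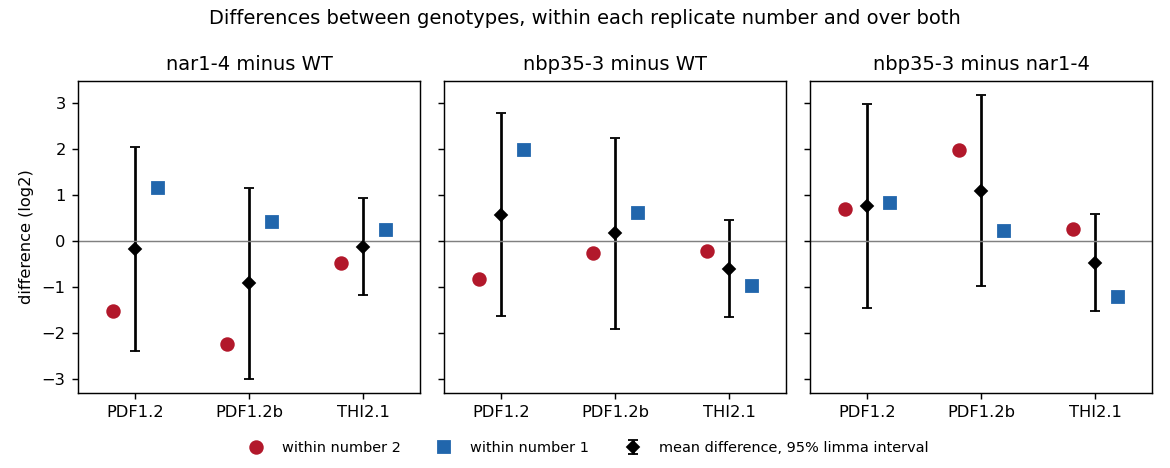
Log2 differences (vertical axis) of the 3 marker genes for nar1-4 minus WT, nbp35-3 minus WT and nbp35-3 minus nar1-4, with red circles within number 2, blue squares within number 1, and black diamonds for the mean of both with the 95% limma interval. All 9 intervals cross 0, and the PDF1.2 points of the 2 numbers lie on opposite sides of 0 against WT but at 0.69 and 0.82 between the mutants.

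**Figure D3:**
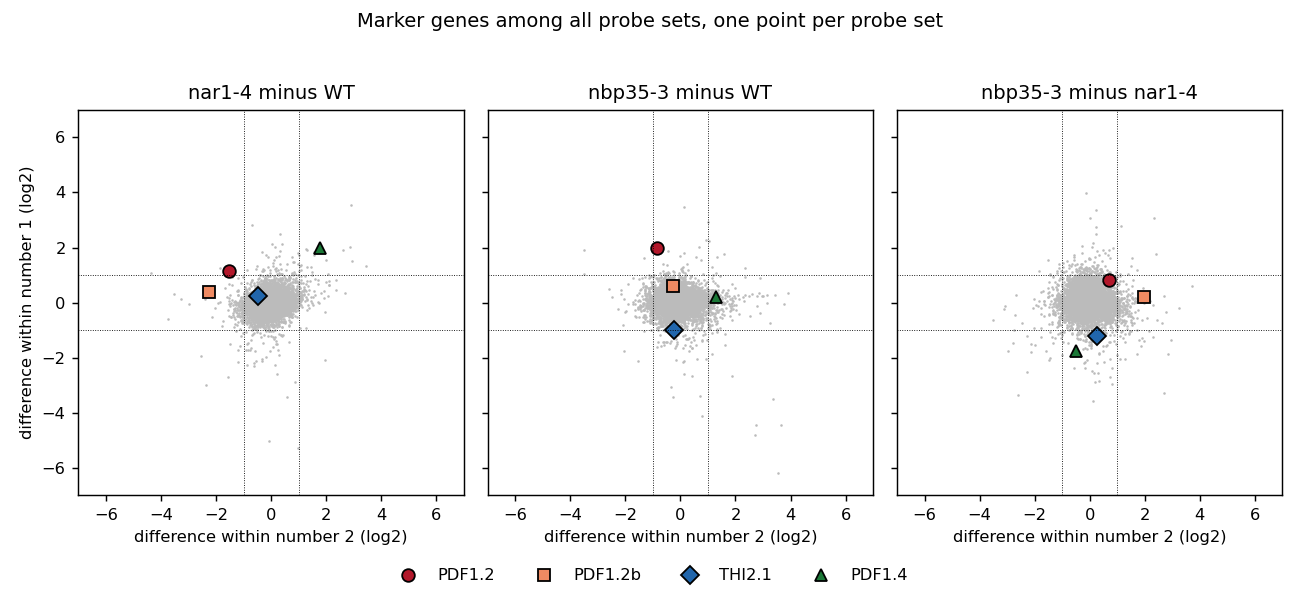
Log2 difference within number 2 (horizontal axis) against that within number 1 (vertical axis) for all 22746 probe sets (grey) in each comparison, with dotted lines at 2-fold and the 3 marker genes and PDF1.4 marked. In nar1-4 PDF1.2 lies past 2-fold in the upper left corner, with opposite directions, and PDF1.4 past 2-fold in the upper right, higher in both numbers.

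Between the numbers themselves, with genotype as a term in the fit, 0 of the 3 genes passed, although number 2 was higher for 12.3% and lower for 11.2% of all probe sets by limma with Benjamini-Hochberg adjustment (2787 higher and 2538 lower, or 2252 and 3592 after median centring). PDF1.2 averaged 4.87 ± 0.76 in number 2 and 5.75 ± 0.99 in number 1 (SD, n = 3 each; log2 -0.88 ± 0.55, SE, adjusted p = 0.31). PDF1.2b averaged 5.52 ± 1.23 and 6.48 ± 0.31 (log2 -0.96 ± 0.47, adjusted p = 0.205), and THI2.1 averaged 3.46 ± 0.24 and 3.85 ± 0.65 (log2 -0.39 ± 0.27, adjusted p = 0.354). Calls appeared with 1 genotype reduced to a single array, which leaves 1 residual degree of freedom. PDF1.2b was not called in any such fit and gave -0.23 without either nar1-4 array and -1.55 without either WT array. PDF1.2 was called at -1.79 without either WT array, and THI2.1 at -0.76 without either nbp35-3 array. A genotype with 1 array adds nothing to the number difference in such a fit. The PDF1.2 value thus came from nbp35-3 (-1.86) and nar1-4 (-1.73) and left out WT, which went the other way (0.94). The THI2.1 value came from nar1-4 (-1.12) and WT (-0.40) and left out nbp35-3, which went the other way (0.35).

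Of 13 other defensin and thionin genes 10 were measured, counting AT1G66100, which the gene tables leave unnamed and which was listed by its locus. PDF1.4, another defensin of the first class, stood at 6.82 in number 2 and 5.70 in number 1 of nar1-4, against 5.05 and 3.74 in WT. It was at least 2-fold higher within both numbers (1.77 and 1.96), as were 0.0923% of all probe sets, and both its nar1-4 arrays lay above both its WT arrays, as did those of 9.16% of probe sets. The mean difference was 1.87 ± 0.94 (SE, 3.64-fold, limma adjusted p = 1), and 1.21 without the WT array of number 1 and 2.52 without that of number 2. Both leave-out fits set a single WT array against nar1-4 arrays of both numbers. They therefore also carry the number difference, which was 1.31 for PDF1.4 in WT. In nbp35-3 PDF1.4 stood at 6.33 and 3.93, that is 1.28 above WT within number 2 and 0.19 within number 1 (mean 0.74 ± 0.94, adjusted p = 1). Between the mutants it differed by -0.48 within number 2 and -1.78 within number 1 (mean -1.13), and without the nbp35-3 array of number 1 that mean was 0.07. That fit likewise left only number 2 of nbp35-3 against both numbers of nar1-4.

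The mean differences of the other named defensins were smaller. PDF2.5 differed between nar1-4 and WT by -0.72 and -0.43 within numbers 2 and 1 (mean -0.58) and between nbp35-3 and WT by -0.94 and 0.35 (mean -0.30). PDF2.1 was lower in nbp35-3 within both numbers (-0.66 and -0.34, mean -0.50) and differed by 0.20 in nar1-4. PDF1.1 stood at 2.59 to 3.07 on all arrays, under every first quartile, with mean differences of 0.17 in nar1-4 and 0.03 in nbp35-3. Over the 10 genes the median difference was 0.03 in nar1-4, with 3 higher and 5 lower within both numbers, and -0.03 in nbp35-3, with 1 and 1, beside medians of -0.01 and 0.01 over all probe sets. Of all probe sets 25.8% were higher and 28.5% lower within both numbers in nar1-4, and 27.3% and 23.3% in nbp35-3, and limma called 0 of the 10 in either mutant.

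The thionin THI2.2 was higher in number 2 in every genotype. It stood at 8.93 in number 2 and 6.39 in number 1 of nbp35-3, at 9.03 and 6.81 in nar1-4, and at 9.34 and 5.58 in WT, a number difference of 2.84 ± 0.29 (SE, 7.15-fold, limma adjusted p = 0.00357). AT1G66100 was likewise higher in number 2 (1.95 ± 0.43, adjusted p = 0.0276), as was PDF1.4 (1.61 ± 0.26, adjusted p = 0.0107), while PDF2.1 was lower (-0.45 ± 0.11, adjusted p = 0.036). These 4 of the 10 were called between the numbers, 3 higher and 1 lower, against 12.3% and 11.2% of all probe sets. The AT1G66100 call was lost without any 1 WT or nar1-4 array (adjusted p = 0.114 and 0.129) and the PDF2.1 call without any 1 array (0.0768 to 0.153). Against WT, THI2.2 differed by 0.47 in nar1-4 and 0.20 in nbp35-3, and AT1G66100 by -0.31 and -0.32, each with opposite signs within the numbers except AT1G66100 in nar1-4 (-0.06 and -0.56).

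**Figure D4:**
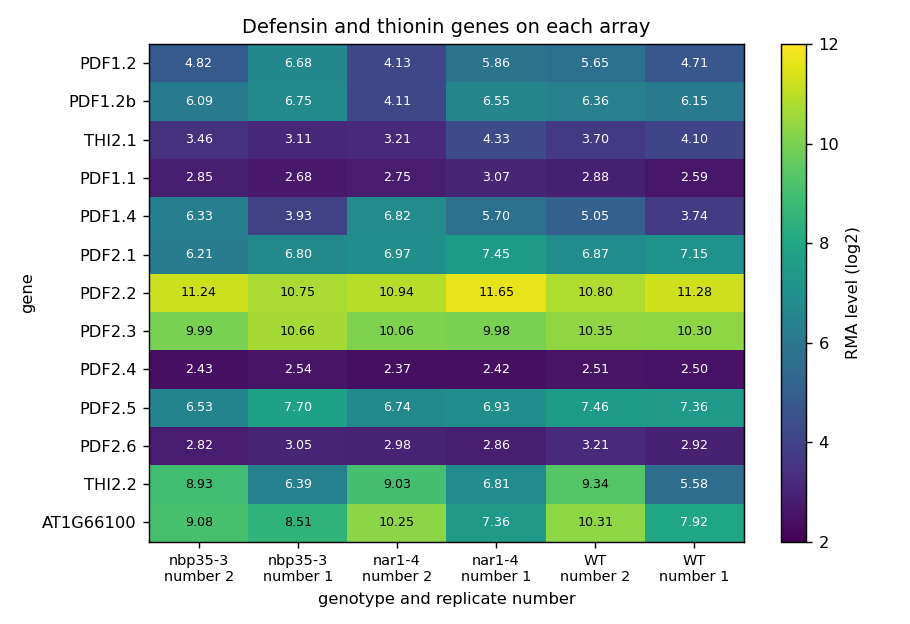
RMA log2 level (colour and printed value) of the 3 marker genes and the 10 other measured defensin and thionin genes (rows) on the 6 arrays (columns, genotype and replicate number). Levels are comparable along a row and not between rows. THI2.2 lies at 8.93 to 9.34 in number 2 and 5.58 to 6.81 in number 1, and PDF1.4 is higher in nar1-4 than in WT within each number.

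Upstream genes of the jasmonate pathway were thinly covered by probe sets that named 1 gene. In every list a gene counted as measured only if a probe set named it alone. As 8730 of 22746 probe sets named no gene in the platform annotation, whether the array reads the missing genes was not checked. A probe set named alone 2 of 23 genes of jasmonate synthesis and turnover, 0 of 16 of perception and repression, COI1 and the JAZ repressors included, 2 of 12 of the MYC branch and 2 of 17 of the ERF branch and ethylene signalling, so neither ERF1 nor ORA59 was followed. JMT, which methylates jasmonic acid, differed from WT by -0.43 in nar1-4 (-0.68 within number 2 and -0.19 within number 1, and a mean of -0.17 without the WT array of number 2 and -0.69 without that of number 1) and by -0.21 in nbp35-3. JMT stood at 2.83 to 3.54 on the arrays, near or under their first quartiles (3.48 to 3.58), so it too was close to the level of dim probe sets. OPCL1, a CoA ligase of jasmonate synthesis, differed from WT by -0.14 in nar1-4 and -0.26 in nbp35-3. MYC3 and MYC4, transcription factors of the wound branch, differed by -0.20 and 0.04 in nar1-4 and by -0.26 and -0.01 in nbp35-3, the last turning to 0.02 and 0.03 after median centring and quantile normalization. EIN3, the central transcription factor of ethylene signalling, stood 0.15 above WT in nar1-4 and 0.21 in nbp35-3, and AT5G43410, listed by its locus, differed by -0.04 and 0.18. Limma called 0 of these 6 genes in either mutant, against 0% of all probe sets. Between the numbers it called 1 of the 6, MYC3, lower in number 2 (-0.55 ± 0.10, SE, adjusted p = 0.0138). Of all probe sets 12.3% were called higher and 11.2% lower there, so 1 call among 6 genes is not particular to this pathway. The MYC3 call was lost without any 1 WT or nar1-4 array, where the difference was -0.57 and -0.56.

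On the salicylic acid side 1 of 17 genes was measured, GRX480. It encodes a glutaredoxin that binds TGA transcription factors and that lowers jasmonate induction of PDF1.2 when overexpressed. GRX480 stood at 4.78 in number 2 and 4.74 in number 1 of nbp35-3, at 3.99 and 4.63 in nar1-4, and at 5.50 and 4.76 in WT. Its nar1-4 difference was thus -1.51 within number 2, where that of PDF1.2 was -1.52, and -0.13 within number 1, where that of PDF1.2 was 1.15. The mean differences were -0.82 ± 0.33 in nar1-4 and -0.37 ± 0.33 in nbp35-3 (SE, limma adjusted p = 1 for each). The nar1-4 difference was -0.445 without the WT array of number 2 and -0.4999 without the nar1-4 array of number 2.

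Among other genes, likeness of pattern was measured by Pearson's r over the 6 arrays, among genes that ranged at least 0.5 times as far as the marker. For PDF1.2 the nearest of 1125 genes were AT3G16120 (r = 0.912), AT1G23140 (0.897) and AT2G21100 (0.849). AT3G16120 stood at 5.05 in number 2 and 6.25 in number 1 of nbp35-3, at 4.85 and 5.86 in nar1-4, and at 5.31 and 5.42 in WT, so it shared the spread of PDF1.2 within the mutants but barely differed between the WT arrays. The nearest of 1026 genes to PDF1.2b were AT5G23840 (r = 0.912), AT3G23190 (0.880) and AT3G20340 (0.875), all lowest on the nar1-4 array of number 2. For THI2.1, among 4949 genes, they were AT3G60420 (r = 0.983), AT2G41090 (0.909) and AT3G09405 (0.908). With 6 arrays and so many genes searched, high r values are frequent, and these are given as a description.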

How the data were processed

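Values were log2 levels of 22810 probe sets on each of 6 arrays, which the authors made with RMA (background correction, quantile normalization, probe set summary), per the submitters' processing notes. RMA removes overall differences in RNA amount. Values were used as deposited, with 0 value columns lacking a sample. Per the labels' protocols, biotinylated cRNA was made from a smaller RNA input for 3 samples, named by codes not tied to genotypes or numbers. Each number holds 3 arrays, and whether the input differed between the numbers cannot be told. After 64 control probe sets were set aside, 13513 of 22746 named 1 gene, 503 several and 8730 none in the platform annotation, and 13436 matched a RefSeq locus (TAIR10.1). Limma 3.58.1 in R 4.3.3 (lmFit, eBayes, two-sided, Benjamini-Hochberg over 22746 probe sets, threshold 0.05) was fitted with 1 mean per genotype, and for the numbers with genotype as a term. The fit of nar1-4 against WT was tested on simulated data with independent noise and no shift between the numbers. Its behaviour under such a shift was not tested. P-values measure the spread between these arrays only, and 2 arrays per genotype limit precision. Alternatives were a replicate block, a trended prior, a dim filter, median centring, quantile normalization, fits of 2 genotypes and leaving out each array. Named were the markers, fixed family and pathway genes, and per list the 2 largest differences in each mutant. Members and lists were chosen with earlier results of these data known. Protein and promoter sequences were not used here.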

Additional observations from a re-analysis of the deposited data

How the results depend on the processing

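Calls of the 3 marker genes against WT and between the mutants were 0 in each setting tried, and so were counts over all probe sets. The dim filter dropped PDF1.2 and THI2.1, and also PDF1.4, GRX480 and JMT among others, so they have no value there. The labels tie no array to another, so the replicate block is a check only: it called 0 probe sets in each comparison, with 1009 (nar1-4), 1076 (nbp35-3) and 1263 (between the mutants) at an unadjusted p under 0.05 and smallest adjusted p of 0.155, 0.306 and 0.152. With the block PDF1.2, PDF1.2b and THI2.1 kept their differences, with SE of 0.67, 0.58 and 0.33. Their blocked 95% intervals were -1.11 to 2.24, -1.27 to 1.60 and -1.43 to 0.21 in nbp35-3, and -0.93 to 2.43, -0.35 to 2.53 and -1.30 to 0.34 between the mutants. Deviations of same-numbered arrays correlated at 0.814 (nar1-4 and WT), 0.694 (nbp35-3 and WT) and 0.674 (nbp35-3 and nar1-4). PDF1.4 in nar1-4 had SE 0.31 with the block (unadjusted p = 0.00126, adjusted p = 0.894). The leave-out fits against WT and between the mutants hold no term for the number. Leaving out 1 array of a compared genotype gives the genotypes unequal shares of the numbers, so the number difference also enters these values. Leaving out 1 array at a time, PDF1.4 in nar1-4 stayed between 1.21 and 2.52, GRX480 between -1.19 and -0.445 and JMT between -0.69 and -0.17, while most of the following changed sign. In nar1-4 PDF1.2 ranged from -1.05 to 0.68, PDF1.2b from -2.14 to 0.29 and THI2.1 from -0.69 to 0.43. In nbp35-3 PDF1.2 ranged from -0.36 to 1.498 and PDF1.2b from -0.17 to 0.50, while THI2.1 stayed between -0.81 and -0.41. Between the mutants PDF1.2 ranged from -0.18 to 1.68, PDF1.2b from -0.13 to 2.31, THI2.1 from -1.04 to 0.0816 and PDF1.4 from -2.33 to 0.0717. Between the numbers no sign turned, and PDF1.2 ranged from -1.79 to -0.39, PDF1.2b from -1.55 to -0.23 and THI2.1 from -0.76 to -0.0277, and the called probe sets from 1715 to 5816.

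Other genes whose sign turned without 1 array, with their ranges, were in nar1-4 AT1G66100 (-1.76 to 1.14), AT5G43410 (-0.0957 to 0.0192), EIN3 (-0.25 to 0.55), EXPA7 (-0.14 to 0.0144), LHCB4.1 (-0.0235 to 0.23), MYC3 (-0.468 to 0.0596), MYC4 (-0.10 to 0.18), PDF2.1 (-0.0433 to 0.44), PYK10 (-0.37 to 0.0959) and THI2.2 (-1.41 to 2.34). In nbp35-3 they were AT1G66100 (-1.52 to 0.88), EIN3 (-0.0437 to 0.47), EXPA18 (-0.21 to 0.86), EXPA7 (-0.58 to 0.72), GRX480 (-0.74 to 0.0048), JMT (-0.47 to 0.0528), LHCB4.1 (-0.0739 to 0.0412), MYC3 (-0.56 to 0.0452), MYC4 (-0.24 to 0.22), OPCL1 (-0.59 to 0.0738), PDF1.1 (-0.11 to 0.17), PDF1.4 (-0.47 to 1.94), PDF2.5 (-0.88 to 0.29) and THI2.2 (-1.68 to 2.08). A turned sign here need not be a disagreement between the numbers, since the number difference enters these fits. In nar1-4 AT1G66100, EIN3, EXPA7, MYC3 and PDF2.1 kept their sign within both numbers. In nbp35-3 EIN3, GRX480, MYC3, OPCL1 and PDF1.4 did so, and the others listed had opposite signs within the numbers. In nbp35-3 the scaling turned LHCB4.1 to 0.0114 and MYC4 to 0.0184 (median centring), and MYC4 to 0.0303 and PDF1.1 to -0.0075 (quantile normalization). Why the scaling turned these signs was not tested.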
